A study of Mus musculus with 6 samples.

Results

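The genes described here encode translation initiation factors (symbols beginning with Eif) and elongation factors (symbols beginning with Eef), the proteins that bring messenger RNA, initiator tRNA and ribosomal subunits together and then move the ribosome along. They were chosen by symbol alone, as every row whose symbol began with Eif or Eef followed by a digit, without the eIF2 kinases (Eif2ak symbols) and without the Y-linked gene Eif2s3y. The rule took 56 of the 10772 rows of the expression table. Of these, 51 were translation factor genes by name, 3 were annotated pseudogenes, and 2 were the Argonaute genes Ago1 and Ago2 under their former symbols Eif2c1 and Eif2c2, which act in small RNA silencing and not in translation initiation.

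The values came from RNA sequencing of mouse thymic natural killer T (NKT) cells, T cells with a nearly invariant receptor for lipids on CD1d. There were 3 wild-type (WT) libraries and 3 libraries labelled UTX/JMJD3 DKO, a double knockout of 2 enzymes that demethylate histone H3 at lysine 27. All 6 libraries came from a mixed background of C57BL/6 and 129, and each genotype had 2 female libraries (replicates 1 and 2) and 1 male library (replicate 3). All cells were fresh NKT P1 cells from the thymus, sorted as positive for the CD1d-PBS-57 tetramer and negative for CD24, for NK1.1 and for CD44. The labels give no age, no cell number and no driver for the deletion, nor do they state if the female libraries of 1 genotype are from different mice. The p-values therefore reflect library-to-library spread, which may be technical. The design implies 1 comparison per factor gene, DKO against WT.

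During initiation, eIF2 carries the initiator tRNA to the small subunit, and eIF2B recharges eIF2 with GTP. The many-subunit eIF3 holds the small subunit open for the other factors, while eIF4E binds the messenger's cap, eIF4G bridges cap and ribosome, and the helicase eIF4A unwinds the leader. In elongation, eEF1A delivers each charged tRNA and eEF2 drives translocation. T cells leaving quiescence are known to raise their translation machinery as they grow and divide.

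The libraries differed in ways that touch these results. The RPKM steps (reads relative to the length of the gene and to all mapped reads of that library) implied 32.4 M reads for WT and 34.4 M for DKO replicate 1, whose columns are headed Set1, against 5.0 M to 7.2 M for the other 4. The Set1 pair also held RNA of some double-positive thymocyte markers: Cd8a, Cd8b1, Ptcra and Dntt summed to RPKM 382.3 in WT and 392.3 in DKO replicate 1, and to between 4.49 and 14.9 in the other 4 libraries. Rag1 and Rag2, double-positive markers also searched for, had no row. Pan-T markers were present throughout, with 5 genes summing to between 1510 and 1736, and none of the B cell, myeloid, erythroid or thymic epithelial markers searched for had a row. The 4 NKT markers summed to between 310.1 and 330 in WT and between 214 and 225 in DKO, without overlap, beside the factor genes, and their part in those values was not tested. Cxcr6, the most abundant of them, read 215, 278 and 282 in WT against 121, 171 and 189 in DKO (log2 change -0.70 ± 0.23, adjusted p = 0.292), while Zbtb16, the transcription factor that defines the lineage, was low in every library, between 0.776 and 5.35. Only Cxcr6 had groups that did not overlap. For Zbtb16, Gata3 and Cd4 the groups overlapped, and Cd4 went the other way, with a log2 change of 0.13 ± 0.51. Kdm6a (UTX) measured 7.06, 4.86 and 1.94 in WT against 4.97, 5.28 and 3.53 in DKO, and Kdm6b (JMJD3) 1.62, 3.12 and 3.65 against 1.41, 0.978 and 2.59. These are whole-gene values, and which exons were removed is not stated in the labels, so they do not check the genotype.

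Many elongation and some initiation factor messengers are known in mammals for a terminal oligopyrimidine tract, a C followed by an unbroken run of C and T at the transcription start, through which mTORC1 controls their translation. RefSeq promoter windows of the GRCm38.p6 build were matched for 40 of the 51 factor genes. A run of C followed by at least 6 more C or T, so 7 bases or longer, lay within 30 bases on either side of the start in 15 of these 40 (37.5%), against 29.7% of the 6649 genes of the table with a window. The windows of Eef1a1 (chr9:78481695-78481754, minus strand), Eef2 (chr10:81176601-81176660, plus strand), Eif3f (chr7:108934385-108934444, plus strand), Eif2s3x (chrX:94212622-94212681, minus strand) and Eif4b (chr15:102073743-102073802, plus strand) show the run, in capitals, in genes with a log2 change above 0, although that of Eef2 was only 0.04 ± 0.29. Those of Eif2s1 (chr12:78862042-78862101, plus strand), Eif1ax (chrX:159372148-159372207, plus strand), Eif2a (chr3:58525791-58525850, plus strand) and Eif4h (chr5:134639380-134639439, minus strand) show its absence from genes whose 3 DKO values lay below the 3 WT values. The last 3 windows hold the reverse. Eif3l (chr15:79075193-79075252, plus strand) and Eef1e1 (chr13:38658999-38659058, minus strand) had a run with changes of -0.67 and -0.52, and Eif4a2 (chr16:23107438-23107497, plus strand) had none with the highest change of the set, 0.60. The windows were picked by the direction of these changes. In that of Eef1a1 the run lies before the letters tatataa, the form of a TATA box, which usually precedes a start. The run of Eef1a1 is therefore not shown to be the messenger's own tract. Each window is printed 5′ to 3′ on the gene's strand, with 30 bases before and 30 from the start. Capitals mark the longest run only, and the windows of Eif3f and Eif3l also hold a shorter run in small letters.
Eef1a1: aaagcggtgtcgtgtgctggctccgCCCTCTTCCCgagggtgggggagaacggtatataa
Eef2: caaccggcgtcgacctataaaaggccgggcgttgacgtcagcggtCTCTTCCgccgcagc
Eif3f: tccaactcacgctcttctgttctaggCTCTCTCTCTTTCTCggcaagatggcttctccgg
Eif2s3x: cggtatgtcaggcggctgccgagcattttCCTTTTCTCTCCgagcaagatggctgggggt
Eif4b: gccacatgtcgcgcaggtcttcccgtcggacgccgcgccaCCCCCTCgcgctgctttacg
Eif2s1: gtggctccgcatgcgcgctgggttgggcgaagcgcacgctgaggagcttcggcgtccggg
Eif1ax: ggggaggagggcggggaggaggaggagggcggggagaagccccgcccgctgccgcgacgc
Eif2a: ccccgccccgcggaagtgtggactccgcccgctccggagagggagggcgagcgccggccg
Eif4h: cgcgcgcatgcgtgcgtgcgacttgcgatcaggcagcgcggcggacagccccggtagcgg
Eif3l: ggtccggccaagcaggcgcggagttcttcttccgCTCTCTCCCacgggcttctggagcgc
Eef1e1: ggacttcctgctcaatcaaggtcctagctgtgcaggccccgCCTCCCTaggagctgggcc
Eif4a2: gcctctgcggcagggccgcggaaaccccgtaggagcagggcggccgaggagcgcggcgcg

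The longest run was 15 bases in Eif3f, 12 in Eif2s3x, 10 in Eef1a1, 9 in Eif3l and 7 in Eef2, Eif4b and Eef1e1. The median log2 difference between DKO and WT was -0.11 over the 15 factor genes with a run (8 below 0) and -0.37 over the 25 without one (19 below 0). Of the 7 factor genes whose DKO values all lay below WT, 6 had a window, and 0 of these 6 held a run, where 26.4% of the 728 genes of the table with such values and a window held one. Eif3l, with a run, fell outside that count by its Set1 DKO value alone. The E-box CACGTG, a palindrome that Myc and related factors are known to bind, lay in the 300 bases around the start (250 before, 50 after) in 10 of the 40 factor genes (25.0%), against 12.5% of all genes with a window: Eif1b, Eif3a, Eif3f, Eif3k, Eif4a1, Eif4e, Eif4g1, Eif4h, Eif5a and Eef2. The median log2 difference was -0.43 over these 10 and -0.18 over the other 30. A factor gene with several listed starts, such as Eif4e with 2 or Eif5a with 6, counted if any of them had a match. A link between either match and the differences was not tested. A match describes letters near an annotated start and not a site in use, and an annotated start may lie some bases from the true one.

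No factor gene passed the test between genotypes. The limma fit on log2(RPKM + 1), adjusted by Benjamini-Hochberg over 10694 genes, called 0 of the 56 at 0.05, where it called 9 of all genes (0.0842%), and the lowest adjusted p of a factor gene was 0.249, for Eif1ax. At an unadjusted p under 0.05, 6 of 56 were lower in DKO (10.7%, against 8.14% of all genes) and 0 were higher (against 2.88%). The 6 were Eif1ax, Eif2s1, Eif5a, Eif4h, Eif3i and Eif3l. By voom on the reads recovered from the RPKM steps, 0 of 56 passed, as did 0 of all genes (0%), and 7 of 56 (12.5%) had an unadjusted p under 0.05 in either direction, against 15.5% of all genes.

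Described by direction alone, 36 of 56 (64.3%) had a log2 change below 0, against 57.1% of all genes tested. The median change was -0.21 against -0.11 over all genes, and 34 of 56 lay below that all-gene median. In 7 of 56 (12.5%) every DKO value lay below every WT value, close to the 11.4% of all genes. These 7 were Eif2s1, Eif5a, Eif1ax, Eif4h, Eif2a, Eif3i and Eif3j. In 2 (3.57%, against 5.71% of all genes) every DKO value lay above every WT value, Eif4b and the Argonaute gene Eif2c1. Quantile normalization moved the all-gene median from -0.11 to 0.01, and the factor genes' median then was -0.12. The median SE of the change was 0.30 over the factor genes and 0.43 over all genes.

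**Figure D1:**
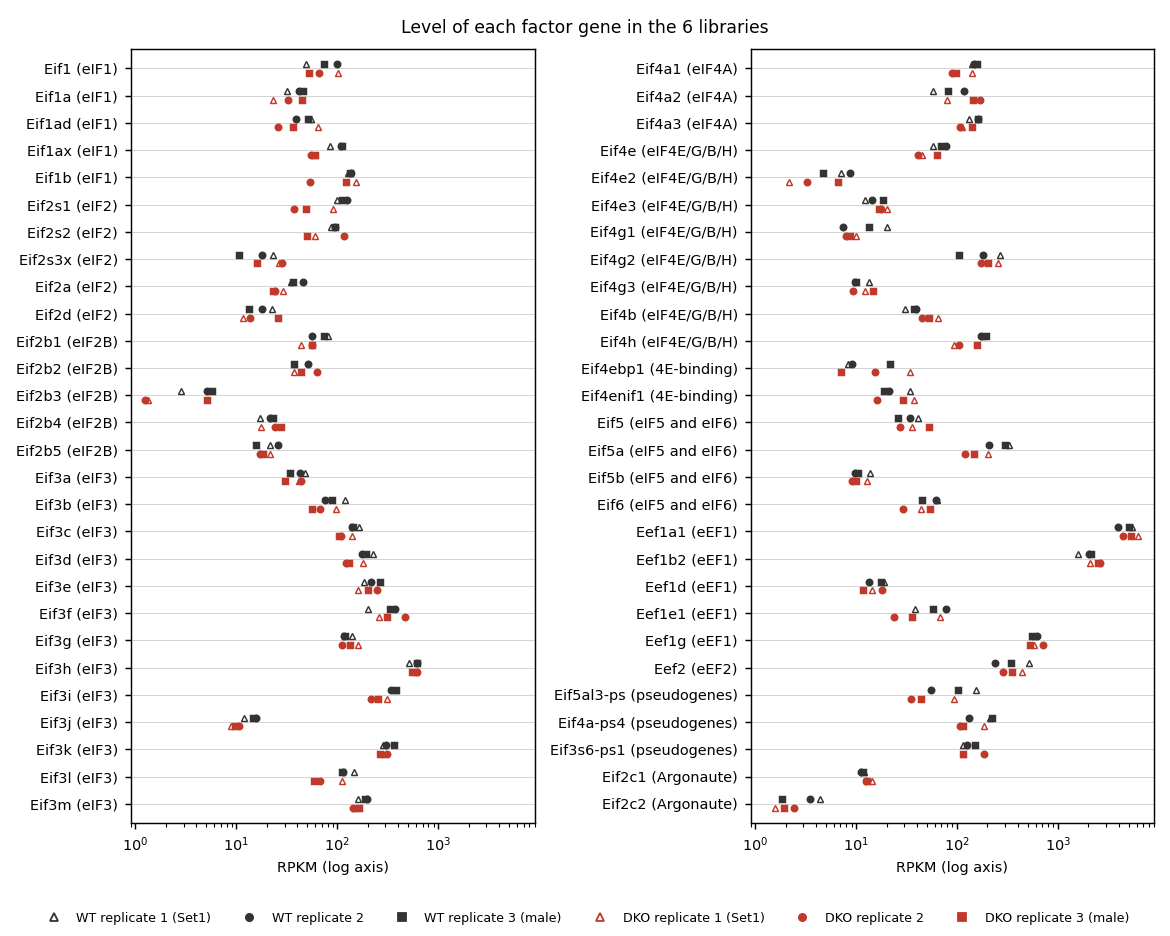
RPKM (log axis) of each of the 56 genes in the 6 libraries, WT in black above DKO in red. Triangles are replicate 1 (Set1), circles replicate 2 and squares the male replicate 3. In most rows the colours interleave, and the 7 genes with all DKO values below WT include Eif2s1, Eif1ax and Eif5a.

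The Set1 pair was set apart from the other 4 libraries because of its depth and its RNA of Cd8a, Cd8b1, Ptcra and Dntt. In the 4 libraries numbered 2 and 3, 0 of 56 factor genes passed, against 1 of 10329 genes (0.00968%), and at an unadjusted p under 0.05 limma had 10 lower (17.9%, against 7.15% of all genes) and 2 higher (3.57%, against 2.92%). Both DKO values lay below both WT values in 21 of 56 (37.5%, against 25.7% of all genes), and above in 5 (8.93%, against 17.7%). The median change in these 4 was -0.20 against -0.11 for all genes, close to the value from all 6 libraries. In the Set1 pair alone, with no replicate, the differences ran from -1.37 to 1.91 with a median of -0.16, against -0.06 for all genes, and 35 were below 0. Of the 56, 42 had the same sign in the Set1 pair as in the other 4 libraries, and Spearman's rho across these 56 genes, which are not independent replicates, was 0.36. Within the Set1 pair the 4 double-positive thymocyte markers lay on both sides, with Cd8a at 174 in WT and 148 in DKO, Dntt at 84.2 and 65.8, Cd8b1 at 116 and 163, and Ptcra at 8.25 and 15.3. Their part in the differences of the factor genes was not tested.

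**Figure D2:**
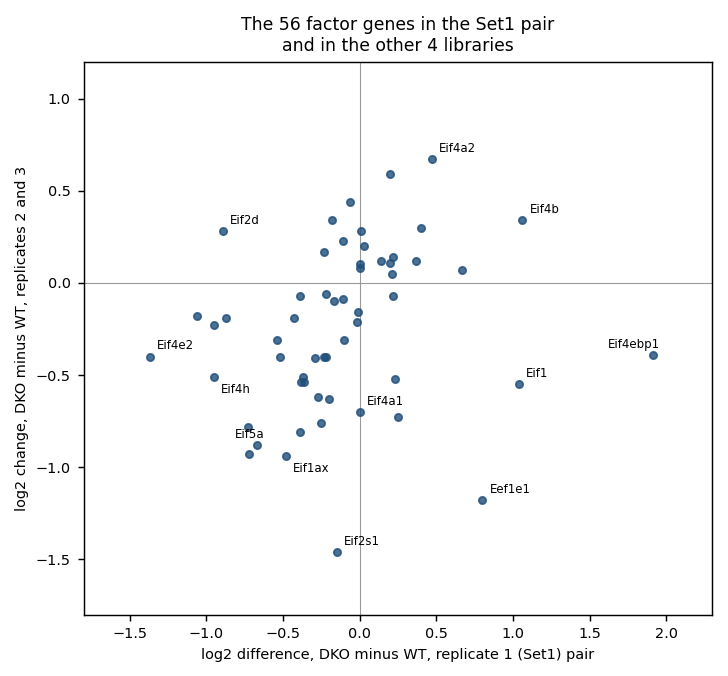
Log2 difference (DKO minus WT) of each of the 56 genes in the Set1 pair (x) and log2 change in the other 4 libraries (y), on the log2(RPKM + 1) scale. Of the 56 points, 42 lie in the quadrants where the signs match; Eif4ebp1, Eif1 and Eef1e1 lie far to the right and below 0.

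Among the eIF1 and eIF1A genes, whose products govern scanning and the choice of start codon, 5 of 5 had changes below 0 (4 of 5 under quantile normalization, median log2 ratio scaling or voom), with a median of -0.27. Eif1ad, the fifth, is placed here only for the eIF1A domain in its name. Eif1ax, the X-linked eIF1A gene, had RPKM values of 83.9, 109 and 112 in WT and, in DKO, 60.05, 55.0 and 59.8. The groups did not overlap, and the 3 DKO values were close together. Its log2 change was -0.78 ± 0.23 (SE, n = 3 per group, adjusted p = 0.249), and -0.94 without the Set1 pair.

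Its paralog Eif1a came to 31.4, 42.0 and 46.1 in WT against 23.0, 32.6 and 45.2 in DKO, with overlapping groups and the lowest mean level of the 5 genes. Because the coding sequences of Eif1a and Eif1ax are alike, reads may have been shared between them, and their summed reads in each M mapped were 161 in WT and 112 in DKO on average, with groups that overlapped. Eif1 read 48.7, 98.6 and 74.5 in WT and, in DKO, 102, 65.2 and 52.2. For Eif1 the difference was 1.04 in the Set1 pair and -0.55 in the other 4 libraries. Eif1b, the most abundant of the 5, stood at 128, 136 and 133 in WT against 152, 53.7 and 122 in DKO, so that only DKO replicate 2 stood far from WT. Without DKO replicate 2 the median of the 5 genes was 0.03.

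For the eIF2 group the median was -0.38, with 4 of 5 below 0. Eif2s1 encodes the alpha subunit, whose phosphorylation by the stress kinases slows initiation. It measured 100.2, 124 and 112 in WT against 90.5, 37.0 and 48.4 in DKO. The groups did not overlap, but the Set1 DKO library lay just below the WT range and the other 2 DKO libraries far below it. The log2 change was -1.02 ± 0.33 (SE, n = 3 per group, adjusted p = 0.276), the lowest of all 56 genes, with -1.46 in the 4 other libraries and -0.15 in the Set1 pair.

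For the other eIF2 subunits the groups overlapped. Eif2s2, the beta subunit, had RPKM values of 86.9, 94.8 and 95.4 in WT and, in DKO, 59.5, 117 and 50.3, with DKO replicate 2 above all WT libraries. Eif2s3x, the X-linked gamma subunit, came to 23.0, 17.8 and 10.7 in WT against 26.6, 28.6 and 15.9 in DKO, a change of 0.46 ± 0.38. The male library was the lowest of each genotype for Eif2s3x.

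Eif2a and Eif2d encode separate proteins that can bring initiator tRNA without eIF2. Eif2a read 34.5, 45.4 and 36.8 in WT and, in DKO, 28.9, 24.3 and 23.2, and the groups did not overlap (log2 change -0.59 ± 0.27, adjusted p = 0.477). Eif2d, the least abundant of the group by its mean over all 6 libraries, measured 22.6, 17.8 and 13.5 in WT against 11.7, 13.8 and 26.1 in DKO, with the male DKO library highest.

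The 5 genes of eIF2B, the exchange factor for eIF2, had a median change of -0.11, equal to that of all genes (0.04 without WT replicate 2 and -0.30 without WT replicate 3), and no gene whose groups separated. Eif2b1 was the most abundant, at 81.6, 55.6 and 73.1 in WT against 44.2, 55.8 and 55.95 in DKO. Eif2b2 had RPKM values of 36.9, 50.7 and 37.1 in WT and, in DKO, 37.0, 63.6 and 43.8, so that the groups overlapped. Eif2b3 was at the lowest level, 2.83, 5.13 and 5.73 in WT against 1.32, 1.25 and 5.17 in DKO. That is 28 reads in DKO replicate 2 and 143 in DKO replicate 1, and its change of -0.76 carried an SE of 0.58. Eif2b4 and Eif2b5 had mean levels between 19.0 and 23.1 in both genotypes.

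In the eIF3 complex 10 of 13 subunit genes had changes below 0, with a median of -0.24 (-0.31 in the 4 libraries without Set1). Mean WT levels of these subunits ran from 14.1 ± 2.02 (SD, n = 3) for Eif3j, a loosely bound subunit whose identifier is now named Eif3j1, to 579 ± 58.6 for Eif3h. RPKM is per length, but longer genes of the set had lower RPKM, and Eif3j has the longest entry of the 13, at 5413 bases. The part of length in these 2 levels was not tested.

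Eif3i, a WD-repeat subunit, came to 377, 340.3 and 384 in WT against 312, 218 and 253 in DKO. The groups did not overlap (log2 change -0.51 ± 0.20, adjusted p = 0.391). Eif3l read 147, 113 and 110.3 in WT and, in DKO, 112, 67.8 and 59.1, where the Set1 DKO library lay among the WT values (log2 change -0.67 ± 0.28, adjusted p = 0.417). Eif3d, which can itself bind some messenger caps, measured 228, 177 and 193 in WT against 178, 123 and 131 in DKO, and there too only the Set1 DKO library reached a WT value. Eif3j had RPKM values of 11.9, 15.8 and 14.6 in WT and, in DKO, 8.92, 10.6 and 9.77, without overlap.

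For Eif3h the difference was smaller than the spread between libraries. It came to 511, 612 and 613 in WT against 595, 616 and 549.7 in DKO, a log2 change of 0.02 ± 0.17. Eif3f, Eif3g and Eif3h were the 3 of 13 with changes above 0, from 0.02 to 0.20. Eif3a, the largest scaffold subunit, had a mean of 41.9 ± 7.08 in WT and 38.7 ± 7.25 in DKO (SD, n = 3). The pseudogene row Eif3s6-ps1 is named after Eif3e by its former symbol Eif3s6, and reads of the pair may have been split. Their summed reads in each M mapped averaged 403 in WT and 378 in DKO.

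The eIF4A helicases lay on both sides of 0, and none passed the test. Eif4a1, the main initiation helicase of dividing cells, read 141, 149 and 156 in WT and, in DKO, 142, 90.0 and 97.0. Eif4a2, its close paralog, measured 57.5, 117 and 81.1 in WT against 80.1, 169.7 and 143 in DKO. For Eif4a1 the Set1 libraries were level and the other 2 DKO libraries lay below WT, and for Eif4a2 those 2 DKO libraries lay above all WT libraries.

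The log2 change was -0.47 ± 0.23 for Eif4a1 (adjusted p = 0.513) and 0.60 ± 0.35 for Eif4a2 (adjusted p = 0.558). Because both are read in the same library, their ratio depends little on how a library is scaled. The 1 added to each RPKM leaves a slight dependence. The log2 ratio of Eif4a1 to Eif4a2 was 1.28, 0.34 and 0.93 in WT and 0.81, -0.91 and -0.55 in DKO. Eif4a2 thus made up 28.9%, 44.1% and 34.2% of the pair in WT and 36.1%, 65.3% and 59.5% in DKO. The means of the log2 ratio were 0.85 ± 0.48 and -0.21 ± 0.91 (SD, n = 3), a difference of -1.07 with p = 0.2 in an exact two-sided permutation test, whose smallest possible p here is 0.1.

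The value of Eif4a1 is uncertain where its reads could be split with a pseudogene of the family. The row Eif4a-ps4 read 212, 132 and 223 in WT against 184, 106 and 116 in DKO. That row took between 37.8% and 50.7% of the summed reads of the pair. With both summed, the mean was 496 reads in each M mapped in WT and 359 in DKO, the groups overlapped, and the difference in the log2 ratio to Eif4a2 was -1.09. Eif4a3, which belongs to the exon junction complex of spliced messengers, had RPKM values of 130, 163 and 161 in WT and, in DKO, 111, 108 and 139.

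The cap-binding and scaffold genes (eIF4E, eIF4G, eIF4B and eIF4H) were split, with 4 of 8 below 0 and a median of -0.17. Leaving out WT replicate 1 brought that median to -0.01, leaving out DKO replicate 2 to -0.03, and leaving out the Set1 pair to -0.08. Eif4e, the cap-binding subunit, came to 58.2, 76.8 and 69.4 in WT against 44.9, 41.3 and 62.8 in DKO (log2 change -0.46 ± 0.26, adjusted p = 0.555). The male DKO library lay above the lowest WT library. Eif4e2, a cap-binding relative known to repress translation, was the least abundant at 7.15, 8.79 and 4.69 in WT against 2.16, 3.24 and 6.58 in DKO.

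The 2 helicase partners lay on opposite sides. Eif4h read 181, 173 and 192 in WT and, in DKO, 93.1, 104 and 156, and Eif4b measured 30.6, 39.2 and 37.3 in WT against 65.1, 44.9 and 52.5 in DKO. Neither pair of groups overlapped. The log2 change was -0.66 ± 0.24 for Eif4h (adjusted p = 0.341) and 0.58 ± 0.27 for Eif4b (adjusted p = 0.468), and without Set1 these were -0.51 and 0.34.

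Among the scaffolds, Eif4g2 was far above Eif4g1 and Eif4g3. Eif4g2, which lacks the eIF4E-binding part, had RPKM values of 264, 179.7 and 104 in WT and, in DKO, 254, 172 and 202, with the male WT library lowest. Eif4g1 had a mean of 13.6 ± 6.32 in WT and 8.88 ± 0.939 in DKO, and Eif4g3 11.0 ± 2.10 and 12.1 ± 2.72 (SD, n = 3). The gene identifier listed as Eif4e3 belongs to Gm20696 in GENCODE M21, so what its value of 15.1 in WT and 18.2 in DKO counts is uncertain.

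Both eIF4E-binding proteins in the table had changes above 0 over all 6 libraries, with a median of 0.25, and a median of -0.14 without Set1 and -0.15 without DKO replicate 1. Eif4ebp1, the mTORC1-controlled repressor of eIF4E, came to 8.40, 9.13 and 21.7 in WT against 34.4, 15.4 and 7.09 in DKO. Its difference was 1.91 in the Set1 pair, 0.70 in the female pair numbered 2 and -1.49 in the male pair. With 1 male library per genotype the male difference rests on 2 values, so a genotype difference between the sexes could not be judged. Eif4enif1, which carries eIF4E into the nucleus, read 34.0, 21.0 and 18.8 in WT and, in DKO, 37.5, 16.1 and 28.9. Eif4ebp2 and Eif4ebp3 were not analysed here.

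**Figure D3:**
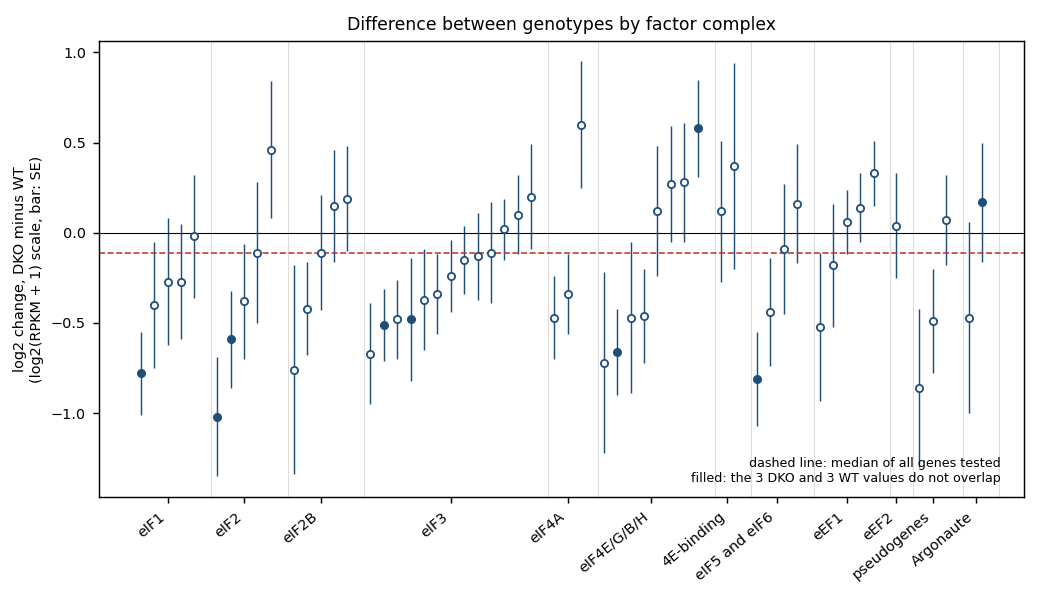
Log2 change (DKO minus WT, log2(RPKM + 1) scale) of each gene with its SE, ordered within each complex; filled points are genes whose 3 DKO and 3 WT values do not overlap. The dashed line is the median of all genes tested, -0.11. The eIF3 genes run from -0.67 to 0.20, and Eif4b and Eif2c1 are the filled points above 0.

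Eif5a was the most abundant of the late initiation factors. Eif5a encodes the hypusine-bearing factor that helps ribosomes through difficult stretches and is now counted as an elongation and termination factor. It measured 323, 205 and 297 in WT against 203, 120 and 148 in DKO. The groups did not overlap, although DKO replicate 1 lay just below WT replicate 2. The log2 change was -0.81 ± 0.26 (SE, n = 3 per group, adjusted p = 0.280), with -0.67 in the Set1 pair and -0.88 in the other 4 libraries.

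The pseudogene row Eif5al3-ps, named after the Eif5a family, had RPKM values of 154, 54.7 and 103 in WT and, in DKO, 93.0, 34.8 and 43.7. Summed with it, Eif5a averaged 594 reads in each M mapped in WT and 337 in DKO, and the groups overlapped by the Set1 DKO library, at 444 against 433 in WT replicate 2. Eif6, which keeps the large subunit from joining too early, came to 63.2, 62.2 and 44.4 in WT against 43.8, 29.3 and 53.5 in DKO. Eif5, the GTPase activator of eIF2, read 40.9, 34.1 and 25.8 in WT and, in DKO, 35.9, 27.0 and 52.8. Eif5b, the GTPase of subunit joining, had means of 11.4 ± 2.10 and 10.6 ± 1.87 (SD, n = 3).

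The 2 most abundant genes of the set were elongation factors. Eef1a1, which delivers charged tRNA, measured 5386, 3909 and 5077 in WT against 6201, 4393 and 5235 in DKO, and it ranked between 1 and 6 in the table in every library. Its log2 change was 0.14 ± 0.19. Eef1b2, the exchange subunit that recharges eEF1A, had RPKM values of 1577, 2005 and 2122 in WT and, in DKO, 2088, 2578 and 2498. The groups overlapped by the Set1 DKO library, and the change was 0.33 ± 0.18 (adjusted p = 0.522).

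Eef1g came to 580.5, 615 and 551 in WT against 580.1, 714 and 533 in DKO, without a difference beyond the spread. Eef1d, the least abundant, had a mean of 16.7 ± 2.88 in WT and 14.7 ± 3.04 in DKO (SD, n = 3). The median of the 5 eEF1 genes was 0.06, with -0.04 under quantile normalization and -0.06 without DKO replicate 2. Eef1e1, which despite its symbol is known as a scaffold of the aminoacyl-tRNA synthetase complex, read 38.7, 77.9 and 57.9 in WT and, in DKO, 68.0, 23.9 and 35.5. Its difference was 0.80 in the Set1 pair and -1.18 in the other 4 libraries. Eef2, the translocase, measured 516, 235 and 341 in WT against 439.5, 288 and 354 in DKO, a change of 0.04 ± 0.29 (-0.02 by voom, and -0.24 without WT replicate 2 or 0.33 without WT replicate 1). Eef1a2 and Eef2k were not analysed here.

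Eif2c1 had RPKM values of 12.1, 11.2 and 11.6 in WT and, in DKO, 14.2, 12.5 and 12.7. Its groups did not overlap, with a log2 change of 0.17 ± 0.33. Eif2c2 came to 4.36, 3.51 and 1.86 in WT against 1.57, 2.44 and 1.93 in DKO, with overlap.

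Levels of the 56 genes ran from a mean RPKM of 2.61 for Eif2c2 up to Eef1a1, with a median of 76.7 against 14.5 for all genes. Longer genes had lower RPKM: over the 56 Spearman's rho of length with mean level was -0.57, against -0.38 over all 10755 genes. The 14 genes above 3000 bases had a median of 12.2 and the 42 shorter ones a median of 93.5. Among the long genes Eef2 and Eif4g2 stood apart, at means of 362 and 196. These are correlations across genes, which share the libraries and their depth. The protocol cited in the labels amplifies RNA of small samples, and the part of length in these levels was not tested.

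**Figure D4:**
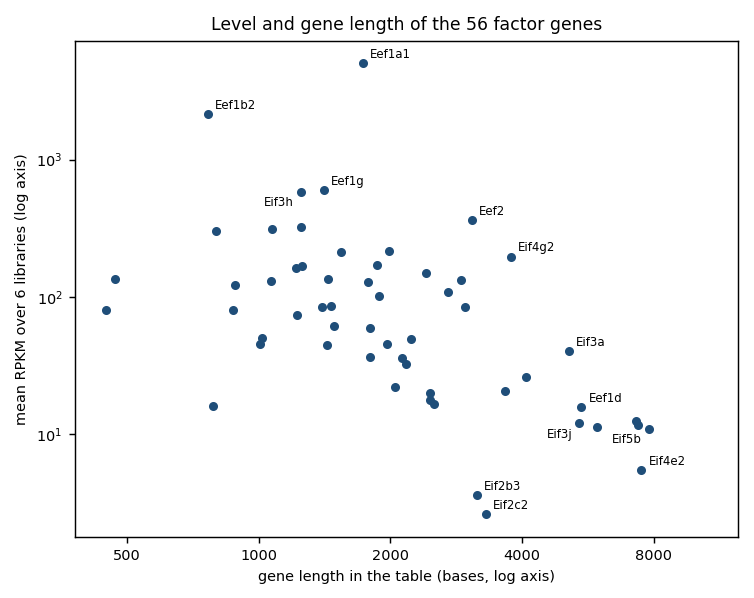
Mean RPKM over the 6 libraries against the gene length given in the table, both on log axes, 1 point per gene. The 14 genes above 3000 bases lie low, apart from Eef2 and Eif4g2; Eef1a1 and Eef1b2 are the highest points.

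Sex was examined with genotype in the model, since Eif2s3x and Eif1ax are X-linked in mouse and Eif2s3x is known to escape X inactivation. No factor gene passed the adjusted threshold between 2 male and 4 female libraries, against 1 of 10694 genes (0.00935%), and 376 of all genes had an unadjusted p under 0.05. Eif2s3x was the only factor gene among them. Its log2 difference, male minus female, was -0.81 ± 0.34, with an unadjusted p of 0.0434 and an adjusted limma p of 0.998. Eif1ax differed by 0.14 ± 0.26. Since Set1 libraries are all female, sex and the Set1 columns are not independent here.

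Around the factors, the cytoplasmic aminoacyl-tRNA synthetases and their scaffolds, which charge tRNAs with amino acids, had a median further below 0 than the factors. Of 22 genes 21 had changes below 0, with a median of -0.55 (-0.42 without Set1). In 7 of 22 every DKO value lay below every WT value, against 11.4% of all genes. In the limma fit 0 of 22 passed, and 3 were lower at an unadjusted p under 0.05, against 8.14% of all genes. The summed RPKM of the 22 was 1017, 892 and 819 in WT against 700.3, 580 and 688 in DKO, so the sums did not overlap. Aimp2, a scaffold of the complex, read 83.1, 71.6 and 59.9 in WT and, in DKO, 32.1, 29.4 and 49.5, with the lowest adjusted p of the list, 0.261. For Gars, Aimp1 and Aars the changes were -0.80 ± 0.31, -0.61 ± 0.24 and -1.32 ± 0.60.

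In the other lists 0 genes passed and the medians lay between -0.16 and 0.27. In the list of eIF2 kinases and the integrated stress response, only 7 of 13 genes had a row. Of these 7, 2 were below 0, with a median of 0.27 (-0.01 by voom). Its 4 genes with the smallest p were Ddit3 (0.39 ± 0.24), Eif2ak3 (0.74 ± 0.48), Ppp1r15a (1.29 ± 0.86) and Asns (-1.17 ± 1.15), and Atf4, the transcription factor translated under eIF2 phosphorylation, was at 204 ± 51.6 in WT and 183 ± 50.1 in DKO. Of the 26 mTORC1 and cap-binding control genes listed, 18 had a row. Of these, 8 of 18 were below 0, with a median of 0.09 (-0.07 without DKO replicate 1). Rheb, the GTPase that switches mTORC1 on, measured 80.8, 91.5 and 84.8 in WT against 59.0, 51.3 and 60.7 in DKO without overlap (adjusted p = 0.367), while Rps6ka1, Mknk2 and Rragc had changes of -0.61 ± 0.25, -0.49 ± 0.27 and 0.58 ± 0.34.

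Poly(A)-binding and helper genes had 10 of 13 below 0 (15 were listed) and a median of -0.15. Denr, which acts in reinitiation and recycling, had a change of -0.86 ± 0.34 (adjusted p = 0.397), and Ncbp2, Abcf1 and Dhx29 had changes of -0.70 ± 0.34, -0.67 ± 0.41 and -0.62 ± 0.47. Of the genes for termination, recycling and the hypusine and diphthamide modifications 10 of 16 were below 0 (17 were listed), with a median of -0.16. Etf1, the release factor, had RPKM values of 52.9, 43.5 and 27.7 in WT and, in DKO, 21.8, 18.5 and 24.3 without overlap (adjusted p = 0.343). Wdr85, Atpbd4 and Dph5, of the diphthamide pathway that modifies eEF2, had changes of -1.74 ± 0.64, 0.96 ± 0.43 and 1.51 ± 0.69. Wdr85 was low, at 9.48, 3.365 and 6.41 in WT against 2.46, 0 and 1.605 in DKO. For Dph5 the difference was 3.52 in the Set1 pair, and 0.37 and 0.64 in the pairs numbered 2 and 3. Mitochondrial factors had 7 of 11 below 0 and a median of -0.08 (0.01 under median log2 ratio scaling). Without DKO replicate 2 the median was -0.30 with 8 of 11 below 0, and without DKO replicate 3 it was 0.09 with 3 of 11 below 0. The changes were -1.10 ± 0.59 for Gfm1, -1.14 ± 0.67 for Mtrf1, 0.50 ± 0.47 for Gfm2 and 0.78 ± 0.76 for Mtif2.

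Markers of cell division separated by genotype beside these groups. Of 12 such genes 12 had changes below 0, with a median of -1.53. In 9 every DKO value lay below every WT value, against 11.4% of all genes. In the limma fit 0 passed the adjusted threshold (lowest adjusted p 0.126), and 9 were lower at an unadjusted p under 0.05, against 8.14% of all genes. The 12 summed to RPKM 1174, 880.3 and 853 in WT against 504, 257 and 426 in DKO, and no DKO sum reached a WT sum. The part of cell division in the factor and synthetase levels was not tested. In these bulk libraries a smaller share of dividing cells and less of a messenger per cell cannot be told apart.

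**Figure D5:**
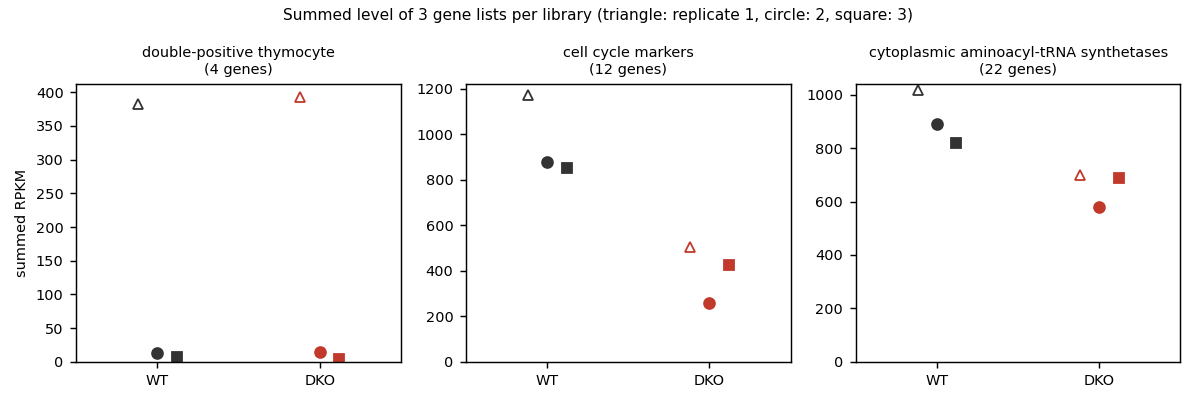
Summed RPKM per library of 4 double-positive thymocyte markers, 12 cell cycle markers and 22 aminoacyl-tRNA synthetase genes; triangles are replicate 1 (Set1), circles replicate 2 and squares replicate 3. The thymocyte sum is 382.3 and 392.3 in the Set1 libraries and at most 14.9 elsewhere, while for the other 2 lists each DKO library lies below each WT library.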

How the data were processed

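Per the labels' protocols, polyadenylated RNA of sorted cells was amplified by a published small-sample method and sequenced on Illumina. Per the submitters' processing notes, Bowtie and mm9 were used. Counting method, strandedness and annotation: not given in the sources used here. Expression was deposited by the authors as RPKM in 10772 rows, and all rows exceeded 3 RPKM in 2 or more libraries. Multiplied by length, 99.6% to 100.0% of values per library fell within 0.05 of a whole number of library-specific steps, which gave implied depths of 5.0 M to 34.4 M reads; counting error is larger in the shallower libraries.

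Identifiers matched GENCODE M21 names for 9918 rows, and 1 row per symbol left 10755 genes. Values were tested as log2(RPKM + 1) with limma 3.58.1 (R 4.3.3, lmFit and eBayes with a trend), for 10694 genes at RPKM 1 or more in at least 3 libraries, with Benjamini-Hochberg adjustment over all of them at 0.05. Fold changes on this scale understate those of low genes. The fit was tested on simulated data. Summaries used pandas 2.3.3 and scipy 1.17.1. The alternatives were pseudocounts, filters, scalings, weights, sex, the replicate number as a block, leaving out libraries, and voom on the recovered reads. RefSeq GRCm38.p6 promoter windows served for letters only; no coordinate was carried over from mm9. Genes named were the 3 with the smallest p, the highest and the lowest of each complex, a fixed set of factors, and the 4 with the smallest p of each pathway list. Atf4 and the other genes of each complex were added after their values were seen. The members and lists were chosen with earlier results of these data known.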

Additional observations from a re-analysis of the deposited data

How the results depend on the processing

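Under all 19 alternatives fitted across genes 0 factor genes passed the adjusted threshold. Of 718 values of named genes under 18 of them (all but the 4 female libraries), 713 stayed within the spread between replicates, 5 moved further and 0 crossed the threshold. In the Set1 pair alone, with no test, 15 of 40 lay further away. The 9 genes called among all genes became 24 with array weights, 0 by voom, 1 in the 4 libraries numbered 2 and 3, 0 in the 4 female libraries (chosen after seeing the data) and between 0 and 13 with 1 library left out (0 without WT replicate 2 or 3, 2 without WT replicate 1). Of 56 factor genes, 4 had every DKO value below WT under quantile normalization, against 8.8% of all genes. Without Set1 they numbered 21 (37.5%, against 25.7% of all genes). With 1 library left out they numbered 9 (without DKO replicate 2, against 17.2% of all genes) to 17 (without DKO replicate 1, against 20.3%). Those above numbered 5 without Set1 (8.93%, against 17.7% of all genes). With 1 library left out those above numbered 2 to 5, against 8.2% to 12.0% of all genes. Fewer libraries make separation easier, for all genes too. The median change of the factor genes was -0.11 under median log2 ratio scaling, against -0.02 for all genes. The same replicate number did not show that samples were paired: deviations of same-numbered libraries correlated at 0.226, 0.146 and 0.075, although every library correlated best with its own number. With the replicate block 0 factor genes passed, 11 (19.6%, against 14.9% of all genes) had an unadjusted p under 0.05 against 6 (10.7%, against 11% of all genes), 9 genes were called in all, and the Eif4a1 to Eif4a2 difference was -1.07. That difference lay between -1.58 and -0.72 with 1 library left out. Eif2b3, Eif2c2 and Eif4ebp1 had as few as 28, 31 and 36 reads in a library.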
